A study of Rattus norvegicus with 9 samples.

Results

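Chrysophanol, a plant anthraquinone, was given by oral gavage for 14 consecutive days to one group of rats (ChryM), and its hippocampal RNA was compared with that of the diabetes-stress group without it (Model). The comparison used 3 ChryM and 3 Model libraries, 6 of the 9 in the series, chosen by the group label. The control libraries (Ctrl) were left out.

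The animals were male Sprague-Dawley rats, 6 to 8 weeks old on arrival. Per the labels, the diabetes model was 4 weeks of high-fat diet, then 50 mg/kg of streptozotocin, which destroys pancreatic beta cells. Rats were kept as diabetic when fasting glucose stayed at or above 16.7 mmol/L, and 5 weeks of chronic unpredictable mild stress followed. That the ChryM rats had been through the same protocol follows from the series title, and the labels give neither the dose of chrysophanol nor the meaning of the letter M. The labels do not tie libraries to animals, so the p-values below rest on the spread among libraries alone, and that spread may be technical.

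Myelin is the membrane sheath that oligodendrocytes wrap around axons, and in the hippocampus its transcripts come mainly from these glia. Neurons of CA1, CA3 and the dentate gyrus supply most transcripts of synaptic vesicles, neurofilaments and neuropeptides. Ribosomal protein genes are expressed in every cell, and many of their mRNAs start with a pyrimidine tract through which growth signals act on their translation.

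The libraries held 631119 to 866048 counts each, with 13343 to 14033 genes detected. Of 30562 IDs, 6387 passed the count filter, and the median count of a tested gene was 21 to 31 per library. Libraries of the same group differed by 1.27 to 1.69 times the counting variance, and libraries of different groups by 3.35 to 4.27 times. Hippocampal markers were present, with Slc17a7 at 157 to 201 FPKM, Camk2a at 39.3 to 53.9 FPKM and Fibcd1, a CA1 marker, at 12.1 to 16.4 FPKM, while the dentate regulator Prox1 had 0 to 5 counts. The kit keeps the strand of the RNA, but with which strand option the reads were counted is not given in the sources used here. Mt-nd6, the mitochondrial mRNA encoded on the strand opposite to the others, stood at 34947 to 56683 FPKM, against 6925 to 7981 FPKM for Mt-co1. Nr1d1 stood at 1018 to 1094 FPKM, against 133 to 157 FPKM for Thra, the thyroid hormone receptor gene that overlaps it on the other strand. A gene's count may therefore hold reads from the opposite strand, in part or as a whole, or from an overlapping gene, and this was not settled here. Each level and change below is that of the count listed under the gene's name. Overlapping genes are named for some genes only, so a gene given without one may still have one. In bulk tissue, fewer cells of a type and less RNA per cell cannot be told apart either.

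Between ChryM and Model, 602 genes changed (9.43% of those tested), 273 higher in ChryM (4.27%) and 329 lower (5.15%), by edgeR's quasi-likelihood test at an adjusted p under 0.05. Most changes were small: the median size among called genes was 0.51 on the log2 scale, and 40 genes were higher and 36 lower by at least 2-fold. The 3 libraries of one group did not overlap the 3 of the other in 587 of the 602. Without overlap stood 24.6% of all genes tested, 11.9% higher and 12.7% lower in ChryM. Lack of overlap was part of the rule by which many genes below were named, so it adds no separate support to their p-values. Among named genes 8.36% were called, 501 in all. Of these 255 overlap another RefSeq gene, against 2782 of the 5992 named genes tested. Among the 3108 named genes that overlap no other RefSeq gene, 3.6% were higher and 3.8% lower. The split depended on the scaling. With library totals in place of TMM factors, 382 genes were higher and 260 lower, and the median of all genes moved up by 0.06. Levels below are CPM, counts scaled by library total and TMM factor, and the error of a fold change is its standard error.

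**Figure D1:**
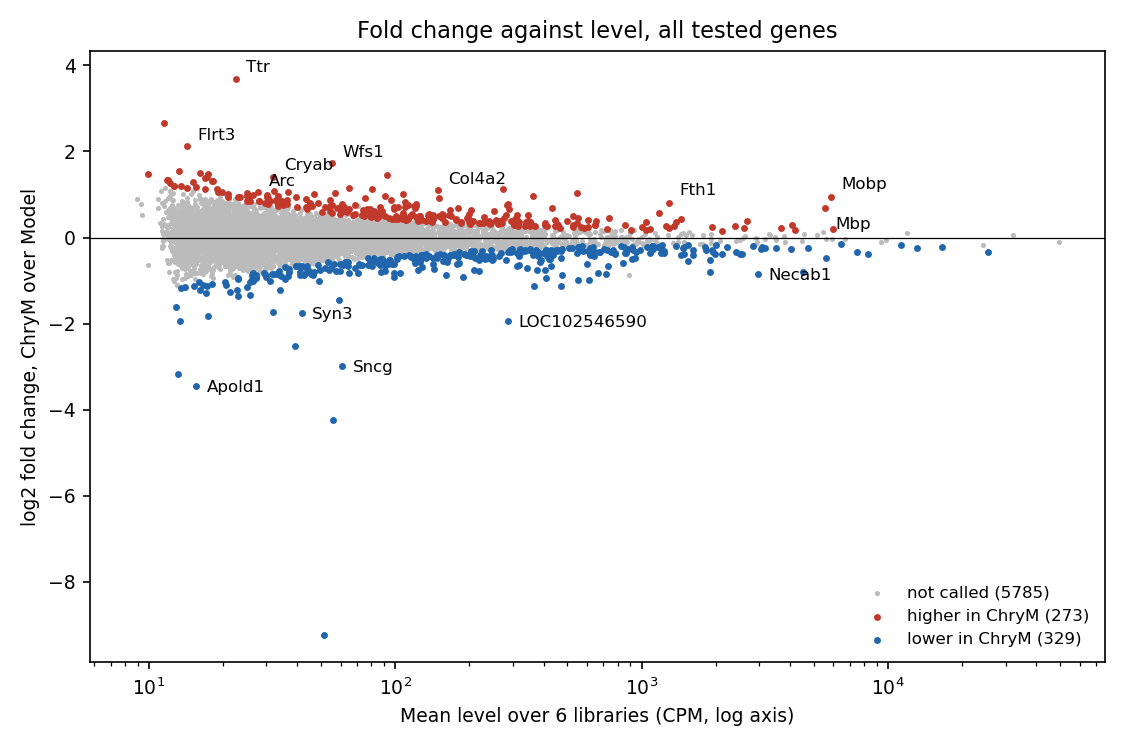
Each point is a tested gene, with its mean level over the 6 libraries on a log axis in CPM and its log2 fold change of ChryM over Model; red and blue mark the 273 genes called higher and the 329 called lower. Ttr, Flrt3 and Wfs1 stand highest among the labelled genes and Apold1, Sncg and LOC102546590 lowest, while the abundant Mbp and Mobp moved by less than 1 on the log2 scale.

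The genes of the myelin sheath included some of the most abundant transcripts that rose. Mbp (ENSRNOG00000016516) encodes myelin basic protein, which compacts the sheath. It stood at 4198, 4209 and 4366 CPM in Model and at 6808, 6979 and 6724 CPM in ChryM. The libraries of each group lay within a narrow band, and the bands were far apart. Mbp rose by 0.68 ± 0.05 on the log2 scale (adjusted p = 2.77e-18). An uncharacterised gene, LOC108348833, overlaps it on the other strand.

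Mobp (ENSRNOG00000018700) encodes another basic protein of compact myelin and has no overlapping gene. It stood at 4670, 3810 and 3625 CPM in Model and at 8445, 7298 and 7444 CPM in ChryM. The lowest ChryM library was above the highest Model library, but both groups spread more than for Mbp. The rise of 0.94 ± 0.10 had an adjusted p of 0.00126, and without ChryM 3 the adjusted p was 0.0683.

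Of 19 tested myelin genes 6 rose and none fell, with a median of 0.29 against -0.000774 over all genes tested. Among the further members that rose were Mag, an adhesion molecule facing the axon, at 0.64 ± 0.12, Mal, a raft proteolipid, at 0.71 ± 0.15, and Opalin, an oligodendrocyte membrane protein, at 0.90 ± 0.22. Other members did not pass the threshold: Mog, a surface glycoprotein of the outer sheath, was at 0.09 (95% interval -0.18 to 0.35), Cnp at 0.26 (0.02 to 0.50) and Cldn11, the claudin of its tight junctions, at 0.42 (0.13 to 0.71). Zfp57 (ENSRNOG00000022730), an imprinting regulator whose gene overlaps Mog, rose from 2330 ± 76.6 to 3034 ± 71.1 CPM (SD, n = 3).

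The summed level of the myelin list was 9219 to 10120 CPM in Model and 15705 to 16651 CPM in ChryM. Mbp and Mobp made up most of this sum in both groups and most of its rise. Of 5 tested genes of the oligodendrocyte lineage and its precursors, including Olig1, Olig2 and Sox10, none was called, and their sum was 211 to 234 CPM in Model and 225 to 233 CPM in ChryM. Bcas1 (ENSRNOG00000012906), a gene of newly myelinating oligodendrocytes, was at 925, 918 and 992 CPM in Model and 1511, 1319 and 1392 CPM in ChryM. Its groups were well apart, and it rose by 0.57 ± 0.06 (adjusted p = 2.67e-11). Tubb4a, a tubulin abundant in oligodendrocytes, rose by 0.30 ± 0.07, and Tubb3, the neuronal tubulin, fell by 0.35 on the log2 scale. Of 32 tested tubulins and microtubule motors 2 were higher, Tubb4a and the motor gene Kif5a, and 1 was lower, with a median of -0.06. That is 9.38% called, against 9.43% of all genes tested. The Tubb3 call was lost on log2(FPKM + 1), at an adjusted p of 0.0533.

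**Figure D2:**
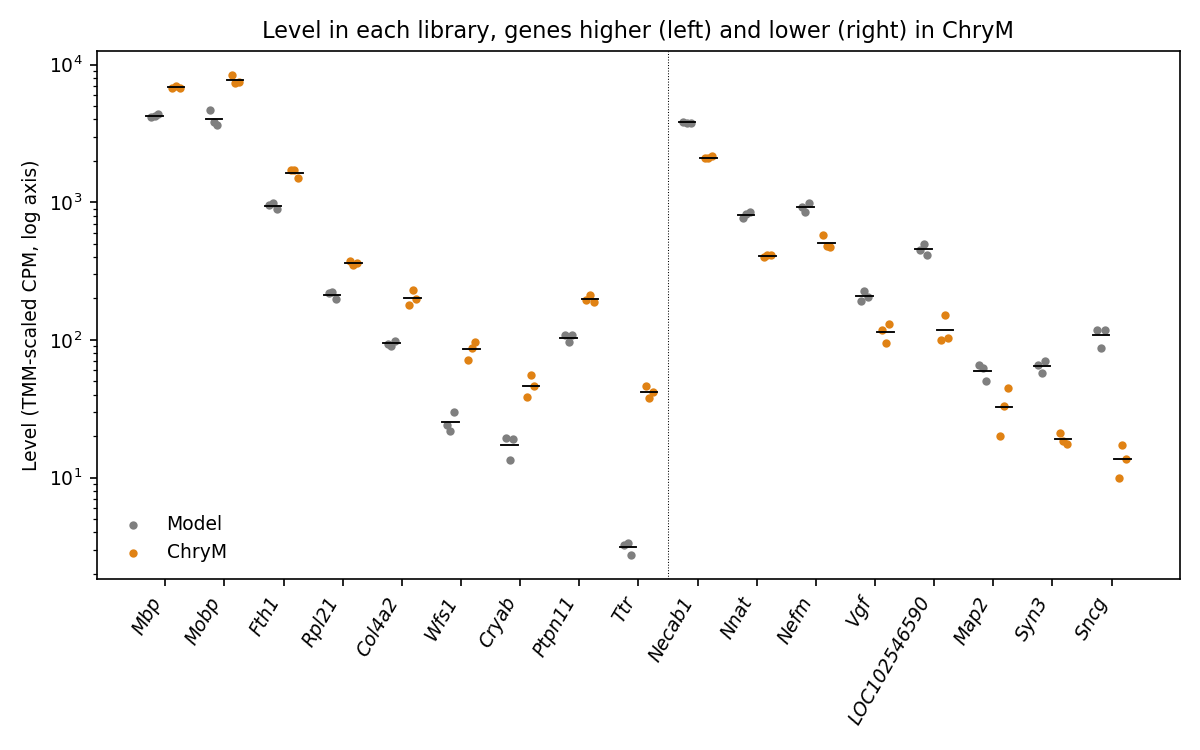
TMM-scaled CPM (log axis) of genes in each Model (grey) and ChryM (orange) library, with black lines at the group means; genes left of the dotted line were higher in ChryM and those right of it lower. The libraries of the groups do not overlap for any gene shown, but lack of overlap was itself part of the rule for naming genes. The spread within a group is widest for Map2 at 19.9 to 44.8 CPM in ChryM.

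Cytosolic ribosomal protein genes formed the list with the most members called. Rpl21, Rps19, Rpl12 and Rps23 had the smallest p among them. Rpl35, Rplp1, Rps7 and Rpl37 had the smallest among those that the rule below classed as starting with a pyrimidine tract. The 50 bases around the RefSeq start of each (30 before and 20 from the start, GRCr8, minus or plus strand as given) are shown to illustrate that rule. In members classed with the tract, capitals mark the run of C and T that begins at the first transcribed base.
Rpl35 (chr3:43165902-43165951, minus): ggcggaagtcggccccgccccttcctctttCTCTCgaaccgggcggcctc
Rplp1 (chr8:71290853-71290902, minus): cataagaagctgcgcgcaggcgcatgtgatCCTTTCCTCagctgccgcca
Rps7 (chr6:50999426-50999475, minus): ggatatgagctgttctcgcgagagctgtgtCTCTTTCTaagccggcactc
Rpl37 (chr2:55942915-55942964, plus): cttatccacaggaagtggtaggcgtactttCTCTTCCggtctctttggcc
Rpl21 (chr12:13386134-13386183, minus): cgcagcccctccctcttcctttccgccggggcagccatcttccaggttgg
Rps19 (chr1:89608658-89608707, plus): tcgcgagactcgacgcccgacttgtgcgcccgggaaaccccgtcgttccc
Rpl12 (chr3:36661910-36661959, plus): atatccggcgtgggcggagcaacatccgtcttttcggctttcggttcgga
Rps23 (chr2:23814487-23814536, plus): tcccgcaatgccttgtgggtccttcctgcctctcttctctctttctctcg

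The tract was searched on the transcribed strand as a C at the first base followed by 4 bases that are each C or T. Of the 66 tested ribosomal protein genes 53 matched the RefSeq promoter table, and 19 of these (35.8%) carried the tract, against 3.11% of all 27457 genes in that table. Of the 19 with it 12 rose, with a median of 0.32, and of the 34 without it 14 rose, with a median of 0.31. The rule reads only the annotated first base, and in Rps23 and Rpl12 the annotated start itself begins with T. Members classed without the tract can therefore still start with a run of C and T, as Rps23 does.

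Rpl21 (ENSRNOG00000000957), a protein of the large subunit, stood at 219, 222 and 197 CPM in Model and at 375, 352 and 360 CPM in ChryM. The gap between the groups was many times the spread within them, and Rpl21 rose by 0.77 ± 0.09 (adjusted p = 2.26e-09). Rps19 (ENSRNOG00000037897), of the small subunit and the gene most often mutated in Diamond-Blackfan anaemia, stood at 193, 197 and 202 CPM against 287, 307 and 316 CPM. It has no overlapping gene, its groups did not overlap, and it rose by 0.62 ± 0.10 (adjusted p = 2.31e-06). Rpl12, in the stalk base of the large subunit, rose by 0.70 ± 0.11, and its intron holds Snora65. Rpl35, Rplp1, Rps7 and Rpl37, shown above with the tract, rose by 0.30 to 0.49, and the calls of Rplp1 and Rps7 were lost without Model 1 (adjusted p = 0.0716) and without Model 2 (0.0779).

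Of the 66 tested members 31 rose and none fell, 64 had a fold change above 0, and the median was 0.31. The libraries summed to 13362 to 13694 CPM in Model and 16284 to 16451 CPM in ChryM, 120 ± 0.617% of the Model mean (SD, n = 3). Small nucleolar RNA genes or other genes overlap many members, and of the 29 with none 11 rose and none fell, with a similar median of 0.31. DESeq2 called 14 of 59, and without Model 2 or Model 3 the count was 16 or 20. Mitochondrial ribosomal protein genes had no member called among 45 (median 0.01), and neither had nuclear-encoded subunits of oxidative phosphorylation among 65 (median 0.03).

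Translation factors did not move as a list, with 2 of 39 higher and 2 lower. Eif5b (ENSRNOG00000023356), the factor that joins the ribosomal subunits, stood at 35.4, 62.3 and 54.7 CPM in Model and 122, 112 and 99.1 CPM in ChryM. The ChryM libraries were all higher, by 1.13 ± 0.17 (adjusted p = 1.35e-06). Eef1a2, the elongation factor of neurons and muscle, was among the 2 lower, at -0.31, with an adjusted p of 0.111 without Model 3.

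**Figure D3:**
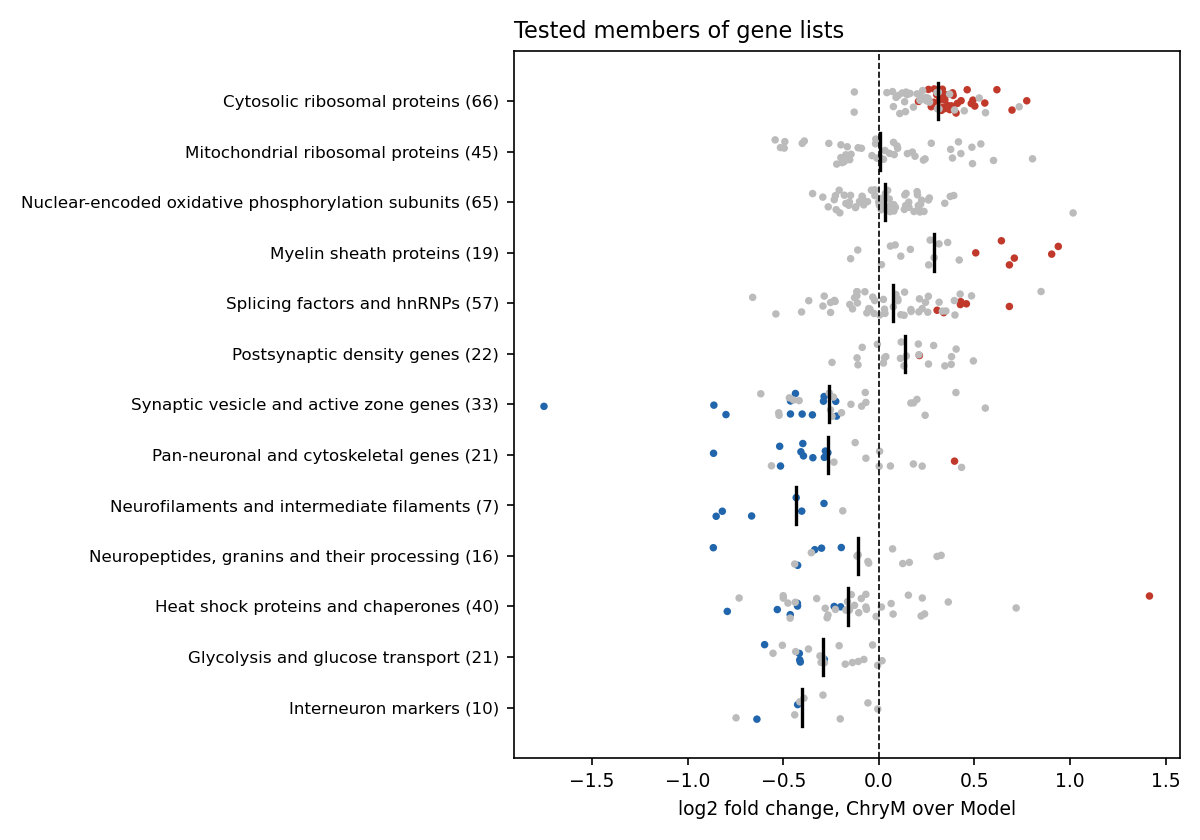
Log2 fold change of ChryM over Model for each tested member of 13 gene lists, with the number tested in brackets, the list median as a black bar and the median of all genes as the dashed line; red and blue mark members called higher and lower. Cytosolic ribosomal protein genes lie almost wholly right of the line and neurofilament and other intermediate filament genes left of it, while mitochondrial ribosomal protein genes scatter about it with none called.

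Intermediate filament genes were lower in ChryM, with 6 of 7 tested members called and a median of -0.43. The 3 neurofilament subunits give axons their calibre. Nefm (ENSRNOG00000013916), the medium chain, stood at 919, 857 and 980 CPM in Model and 575, 480 and 475 CPM in ChryM. The highest ChryM library was well under the lowest Model library, and Nefm fell by 0.85 on the log2 scale (SE 0.07, adjusted p = 4.10e-15). Nefh, the heavy chain, went from 557, 455 and 562 CPM to 352, 313 and 331 CPM. It had no overlap between groups either, and its change was -0.67 ± 0.08.

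Nefl, the light chain, changed by -0.40 ± 0.07. The glial members followed: Gfap, the astrocyte filament, went from 448 ± 27.9 to 368 ± 5.70 CPM, at -0.29 ± 0.08, and Vim from 37.2 ± 6.05 to 21.4 ± 4.99 CPM, at -0.82 ± 0.26 (SD, n = 3). Ina, the other neuronal filament of the list, was at -0.19 and not called. Without Model 2 the list had 3 members lower, without ChryM 2 or Model 3 it had 4, DESeq2 called 3 of 6 and limma on log2(FPKM + 1) called 3. The Gfap call was lost without Model 2 or Model 3 (adjusted p = 0.0641 and 0.0991) and the Vim call without Model 2, Model 3, ChryM 1 or ChryM 2 (0.0922 to 0.186). The list of astrocyte markers held 16 tested genes with 1 higher (Mt3, the brain metallothionein, at 0.27) and 1 lower (Gfap), and a median of -0.13. Its sum was 3305 to 3429 CPM in Model and 3224 to 3290 CPM in ChryM.

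Genes of neuronal shape and growth were also lower, 10 of 21 against 1 higher, with a median of -0.27. Map2 (ENSRNOG00000011841), the microtubule protein of dendrites, stood at 66.0, 62.3 and 50.6 CPM in Model and 19.9, 33.4 and 44.8 CPM in ChryM. The groups did not overlap but the ChryM libraries were far apart, at -0.86 ± 0.22 (adjusted p = 0.0053), and without ChryM 1 the adjusted p was 0.108. Gap43 (ENSRNOG00000001528), a growth cone protein, stood at 235, 261 and 273 CPM against 195, 185 and 158 CPM. Every ChryM library was lower, and Gap43 changed by -0.51 ± 0.10.

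Basp1, a related membrane protein of axon ends, changed by -0.39 ± 0.05, and Map1b by -0.52 ± 0.09. Stmn1, a microtubule destabiliser, was the exception at 0.40 ± 0.10, with an adjusted p of 0.0821 without Model 1. Mapt, which encodes tau, was at 0.06 (95% interval -0.13 to 0.25). The count of lower members fell to 5 without Model 1 and to 6 without ChryM 3, and DESeq2 called 5 and limma on log2(FPKM + 1) called 2.

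Presynaptic and postsynaptic genes gave different counts. Of 33 tested genes of synaptic vesicles and the active zone 12 fell and none rose, with a median of -0.26. Of 22 genes of the postsynaptic density 1 rose (Ddn, the dendritic protein dendrin, at 0.21 ± 0.07) and none fell, with a median of 0.14. The summed level of the presynaptic list was 6652 to 6876 CPM in Model and 5609 to 5625 CPM in ChryM. The postsynaptic sum was 2355 to 2467 CPM and 2577 to 2594 CPM. The difference between the lists was not tested. The call of Ddn was lost without any one of 5 libraries, all but ChryM 3 (adjusted p = 0.0602 to 0.226).

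Snap25 (ENSRNOG00000006037), a SNARE protein of vesicle fusion, stood at 1414, 1334 and 1396 CPM in Model and 1051, 1105 and 1101 CPM in ChryM. The groups were separated by several times their spread, and the change was -0.35 ± 0.06 (adjusted p = 4.55e-06). All 3 synapsin genes, whose proteins tether vesicles, were lower. Syn1 was at -0.46 ± 0.11, Syn2 at -0.80 ± 0.21 and Syn3 at -1.75 ± 0.25. Each synapsin gene holds a Timp gene within it (Timp1, Timp4 and Timp3), and Syn3 also overlaps Fbxo7, so their counts may hold reads of those genes. Without Model 3 the adjusted p of Syn2 was 0.0746, and without Model 1 or Model 3 the list had 8 members lower. In the postsynaptic list the scaffold genes Dlg4, Shank1 and Shank3 were at 0.11 (95% interval -0.10 to 0.33), 0.12 (-0.18 to 0.41) and 0.21 (-0.14 to 0.56). On log2(FPKM + 1) the presynaptic list had 3 lower and 1 higher, and DESeq2 called 5 of 14 lower.

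**Figure D4:**
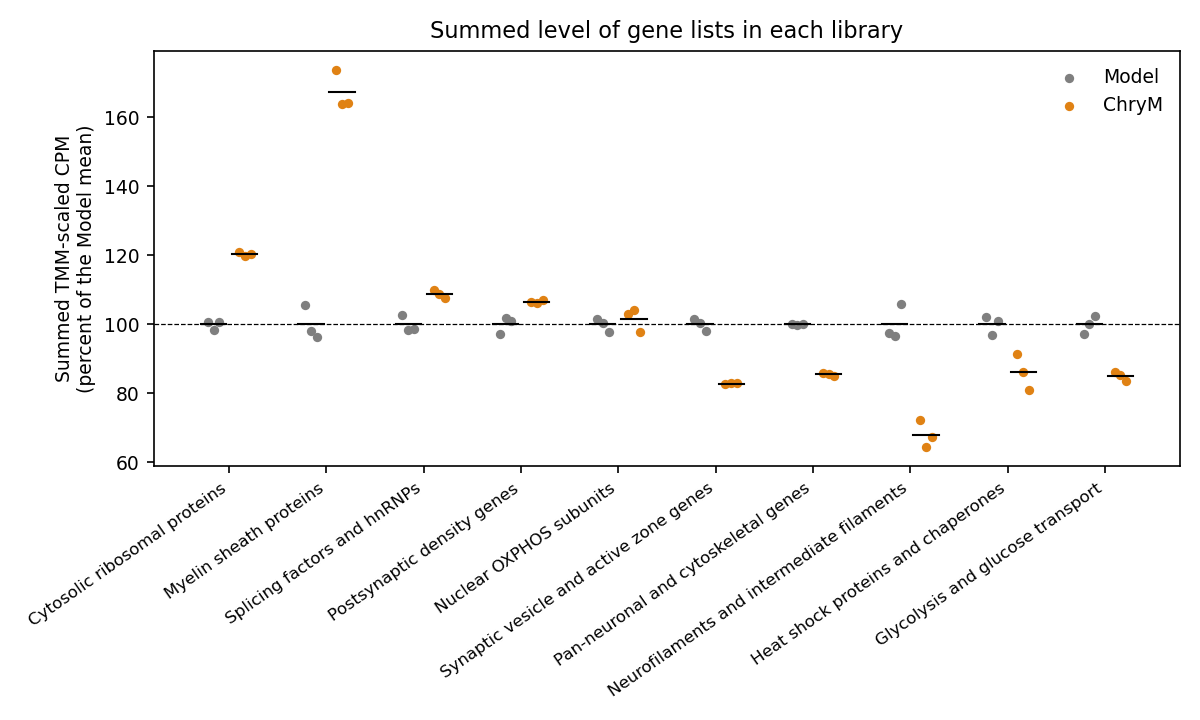
Summed TMM-scaled CPM of 10 gene lists in each Model (grey) and ChryM (orange) library, as percent of the Model mean (dashed line at 100), with black lines at the group means. The myelin sum, mostly Mbp and Mobp, stands at 164% to 174% in ChryM. Cytosolic ribosomal protein genes stand at 120% to 121% and filament genes at 64.4% to 72.2%. Nuclear OXPHOS subunits, at 97.8% to 104%, overlap the Model libraries.

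Neuropeptide and granin genes had 5 of 16 members lower and none higher, with a median of -0.11. Vgf (ENSRNOG00000001416), a secreted neurotrophin-inducible peptide precursor, stood at 193, 226 and 205 CPM in Model and 118, 95.5 and 130 CPM in ChryM. Every ChryM library was far below every Model library, and Vgf changed by -0.87 ± 0.12 (adjusted p = 1.09e-07). The others were Cck, the precursor of cholecystokinin, at -0.42 ± 0.09, Cpe, a prohormone-processing enzyme, at -0.34 ± 0.06, and the granins Chga and Chgb at -0.30 ± 0.08 and -0.20 ± 0.06. Without Model 1 or ChryM 2, 3 members were lower: Chga and Chgb lost their calls there (adjusted p = 0.0764 to 0.282), and Chgb also without Model 2 or ChryM 3 (0.0935 and 0.178).

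Vgf is a textbook target of the cyclic AMP response element, and its promoter is shown because it holds the full palindrome of that element. The 250 bases before its RefSeq start (GRCr8, minus strand) have the 8 letters TGACGTCA in capitals.
Vgf (chr12:25277021-25277270, minus): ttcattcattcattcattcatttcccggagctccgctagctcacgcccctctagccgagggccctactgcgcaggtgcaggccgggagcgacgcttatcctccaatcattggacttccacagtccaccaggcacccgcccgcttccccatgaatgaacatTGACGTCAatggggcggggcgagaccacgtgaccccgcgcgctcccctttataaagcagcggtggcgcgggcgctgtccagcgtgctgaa
Both strands were searched, which for a palindrome is the same search, and 1.78% of all 27457 genes with a RefSeq promoter entry held it in 250 bases before a start. Among the 4832 tested genes with an entry the share was 3.29%. Among the 13 members of the list with an entry, Vgf and Scg2 held it, and Scg2 was at -0.11 and not called.

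Other neuronal genes that moved included markers of CA1, CA3 and the dentate gyrus. Wfs1 (ENSRNOG00000005108), an endoplasmic reticulum protein that marks CA1 pyramidal neurons, stood at 24.1, 21.9 and 30.1 CPM in Model and 72.1, 87.5 and 96.4 CPM in ChryM. The lowest ChryM library was more than 2-fold above the highest Model library, and Wfs1 rose by 1.72 ± 0.23 (adjusted p = 4.02e-09). None of the other 6 tested CA1 markers was called, among them Fibcd1 (95% interval -0.34 to 0.33). C1ql2, a synaptic organiser of dentate granule cells, rose by 1.05 ± 0.25 from 24.1, 25.3 and 23.2 CPM to 50.9, 63.3 and 34.0 CPM. The ChryM libraries were all higher but spread widely, and without ChryM 2 its adjusted p was 0.0577. Of 5 tested dentate markers 3 were called higher, with a median of 0.73, the others being Sema5a at 1.33 and Dock10 at 0.73, and leaving out a library left 0 to 2 calls, 0 without ChryM 2.

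Nnat (ENSRNOG00000024923), the imprinted gene of neuronatin and a CA3 marker, stood at 767, 825 and 845 CPM in Model and 398, 412 and 413 CPM in ChryM. The groups were far apart and tight, and Nnat fell from 812 ± 40.3 to 407 ± 8.59 CPM (SD, n = 3, adjusted p = 5.91e-18). Nnat lies within Blcap. The other 4 tested CA3 markers were not called. Necab1 (ENSRNOG00000007256), a neuronal calcium-binding protein, stood at 3852, 3751 and 3797 CPM in Model and 2085, 2093 and 2155 CPM in ChryM. The spread within each group was small beside the gap, and it changed by -0.85 ± 0.05 (adjusted p = 1.89e-21).

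Sncg (ENSRNOG00000058006), which encodes gamma-synuclein, had 74, 52 and 86 counts in Model and 8, 15 and 10 counts in ChryM. The ratio of Model to ChryM was 7.63 (95% counting interval 5.27 to 11.4), and no ChryM library came near Model. Of 10 tested interneuron markers 2 were lower, Cck among them, and none was higher, and all 10 had a fold change under 0, with a median of -0.40. Sst was at -0.44, Gad1 at -0.29 and Pvalb at -0.01, none of them called.

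Some genes of activity and calcium signalling rose, from 3 lists in which none was lower. Of 7 tested immediate early genes 1 was higher, with a median of -0.18. Of 16 calcium and calmodulin kinases and phosphatases 3 were higher, with a median of 0.06. Of 11 voltage-gated calcium channels 1 was higher, with a median of -0.01. These are 14.3%, 18.8% and 9.09% called, against 9.43% of all genes tested. Arc (ENSRNOG00000043465), an immediate early gene of synaptic plasticity, stood at 14.5, 20.2 and 19.1 CPM in Model and 37.3, 40.3 and 35.3 CPM in ChryM. The groups were clearly apart, and Arc rose by 1.06 ± 0.29 (adjusted p = 0.00474), the single one of 7 tested immediate early genes to be called. Camk2b, a subunit of calmodulin-dependent kinase, rose from 567 ± 29.7 to 737 ± 8.64 CPM, at 0.38 ± 0.07, while Camk2a was at 0.01 (95% interval -0.24 to 0.26). Ppp3ca, the catalytic subunit of calcineurin, rose by 0.39 ± 0.09. Cacna1h, a T-type calcium channel gene that overlaps Tpsg1, rose by 0.96 ± 0.16.

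Vascular, meningeal and choroid plexus genes moved in both directions. Col4a2 (ENSRNOG00000023972), a collagen IV chain of vascular basement membrane, stood at 93.3, 90.9 and 98.4 CPM in Model and 180, 230 and 200 CPM in ChryM. All ChryM libraries were far above Model, and Col4a2 rose by 1.11 ± 0.12 (adjusted p = 4.09e-10). Its partner Col4a1 stood at 54.7, 38.7 and 52.0 CPM against 83.2, 75.9 and 65.2 CPM. The groups were closer than for Col4a2, and Col4a1 rose by 0.62 ± 0.18 (adjusted p = 0.0192). Without Model 2, ChryM 1 or ChryM 2 its adjusted p was 0.133, 0.11 and 0.0609.

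The chains assemble together, and their genes lie head to head. The stretch between their RefSeq starts is shown because both genes are transcribed away from it. It is 76 bases long (GRCr8, plus strand, the strand of Col4a1).
Col4a1 and Col4a2 (chr16:84885521-84885596, plus): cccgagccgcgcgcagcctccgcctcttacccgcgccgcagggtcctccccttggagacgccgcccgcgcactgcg

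Ptgds, which encodes the prostaglandin D synthase of meninges and oligodendrocytes, rose by 0.73 ± 0.14, from 88.5, 87.6 and 99.8 CPM to 160, 170 and 125 CPM. Its ChryM libraries spread more than its Model libraries but all lay above them. Igfbp5 was lower at -0.87 ± 0.28, and without Model 3 its adjusted p was 0.315 (0.0616 to 0.127 without any one ChryM library). Fibrillar collagens of meningeal fibroblasts had few counts, with 10 and 5 counts of Col1a1, 2 and 6 of Col1a2 and 3 and 1 of Col3a1 in Model and ChryM. The summed level of the 19 meningeal and matrix genes was 577 to 628 CPM in Model and 669 to 779 CPM in ChryM, and its part in the changes of other genes was not tested.

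Ttr (ENSRNOG00000016275), the thyroid hormone carrier of the choroid plexus, had 2, 2 and 2 counts in Model and 37, 33 and 31 in ChryM. The ratio of ChryM to Model was 14.2 (95% counting interval 6.29 to 39.6). Of the other 14 genes of the choroid plexus list, 4 were at 0 in all 6 libraries: Kl, Aqp1, Prlr and Otx2. Enpp2, the other tested member, had 0.21 ± 0.24 and was not called, and Clic6 and Kcne2 had 2 and 6 counts in Model and 2 and 4 in ChryM. The sum of the list was 42.2 to 63.2 CPM in Model and 85.2 to 108 CPM in ChryM, and Ttr made up most of this rise. Whether choroid plexus tissue in the samples played a part was not tested.

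Apold1 (ENSRNOG00000007830), an endothelial early-response gene, had 21, 15 and 20 counts in Model and 3, 3 and 0 in ChryM. The ratio of Model to ChryM was 11.1 (95% counting interval 4.78 to 31.5). Klf2, a flow-responsive transcription factor gene that was under the count filter, had 41 counts in Model and 9 in ChryM, and the endothelial identity genes Pecam1 and Cdh5 had 20 and 8 in Model against 16 and 8 in ChryM. The endothelial list had 3 tested genes, all below 0 (Vwf at -0.17 and Slc2a1 at -0.08, not called), and its sum was 165 to 216 CPM in Model and 104 to 109 CPM in ChryM, with no overlap, and the part of these cells in other changes was not tested.

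Fth1 (ENSRNOG00000022619), the ferritin heavy chain that stores iron, stood at 954, 985 and 899.5 CPM in Model and 1706, 1709 and 1502 CPM in ChryM. Every ChryM library was well above every Model library, and Fth1 rose by 0.80 ± 0.06 (adjusted p = 7.25e-17). Ferritin light chain (Ftl1) was at -0.10 and not called. Reads of ferritin pseudogenes cannot be told apart from those of Fth1 with certainty.

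Chaperone genes had 7 of 40 members lower and 1 higher, with a median of -0.16. That median was 0.15 among the 2 members more than 5 kb from another gene. Of the 19 with no overlapping gene 1 was lower and none higher, with a median of -0.07. Of all 40, 20% were called, against 9.43% of all genes tested. Cryab (ENSRNOG00000010524), a small heat shock protein of glia that overlaps Hspb2, stood at 19.3, 13.5 and 19.1 CPM in Model and 38.5, 55.2 and 46.2 CPM in ChryM. Its ChryM libraries were all at least 2-fold the mean of Model, and it rose by 1.42 ± 0.28 (adjusted p = 6.59e-05). Hsp90aa1 was at -0.43 ± 0.09, Hspa1a at -0.53 ± 0.15 and Hspa8 at -0.23 ± 0.08. Without Model 1, 2 members were lower and without ChryM 2, 3 were, while limma on log2(FPKM + 1) called none lower. The adjusted p of Hspa8 was 0.126 to 0.461 with Model 3, ChryM 2 or ChryM 3 left out, and that of Hspa1a 0.232 and 0.13 with Model 1 or ChryM 2 left out.

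Splicing genes had 6 of 57 members higher and none lower, with a median of 0.08. That is 10.5% called, against 9.43% of all genes tested in either direction and 4.27% higher. Of the 36 members with no overlapping gene 3 were higher, with a median of 0.01. Snrnp70 (ENSRNOG00000020763), the U1 protein that defines the 5′ splice site, stood at 1227, 1227 and 1259 CPM in Model and 1702, 1675 and 1615 CPM in ChryM. The spread within each group was small beside the gap, and Snrnp70 rose by 0.43 ± 0.05 (adjusted p = 1.34e-08). Luc7l2 and Luc7l3, which also belong to the U1 particle, rose by 0.68 ± 0.13 and 0.46 ± 0.11. Without Model 3 the list of 57 had 3 members higher.

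Enzymes of glycolysis had 5 of 21 members lower and none higher, with a median of -0.29. That is 23.8% lower, against 5.15% of all genes tested. Of the 14 with no overlapping gene 1 was lower, with a median of -0.30. Tpi1 stood at 282, 285 and 278 CPM in Model and 198, 230 and 202 CPM in ChryM, and its groups did not overlap. It changed by -0.42 ± 0.10 and overlaps Spsb2. Without Model 2 or Model 3 the count was 3, and limma on log2(FPKM + 1) called 1. Genes of the tricarboxylic acid cycle had 1 of 23 lower, with a median of -0.24. This was Got2, at -0.48, whose adjusted p was 0.0681 to 0.238 without any one library but Model 2.

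Among 32 genes of a panel for depression, inflammation and neurodegeneration, the themes of the series title, 16 were tested. Ptpn11 (ENSRNOG00000030124), the phosphatase SHP-2 of growth factor signalling, stood at 108, 96.0 and 108 CPM in Model and 195, 212 and 187 CPM in ChryM. No ChryM library was near Model, and Ptpn11 rose by 0.93 ± 0.12 (adjusted p = 2.09e-08). App, the amyloid precursor gene, went from 1041, 891 and 973 CPM to 714, 792 and 751 CPM, a change of -0.36 ± 0.06. Its groups did not overlap, and Vgf and Gfap, given above, were the other members called lower.

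Panel genes of stress and trophic signalling did not pass. Bdnf was at 0.30 (95% interval -0.39 to 1.00), its receptor gene Ntrk2 at -0.33 (-0.63 to -0.03, adjusted p = 0.192) and the glucocorticoid receptor gene Nr3c1 at -0.14 (-0.75 to 0.47). Apoe, by contrast, was measured closely, at 5637 ± 192 CPM in Model and 5544 ± 85.3 CPM in ChryM (SD, n = 3), a difference of -0.02 (-0.11 to 0.07). Most inflammation genes were too low to test. Of 33 genes in the inflammation and NF-kB list 5 were tested and 1 was lower (Nfkbie), while Cxcl12 and Il6st were not called. Il1b, Il6 and Tnf had 0 counts in all 6 libraries, and Nlrp3 had 2 in Model and 1 in ChryM.

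**Figure D5:**
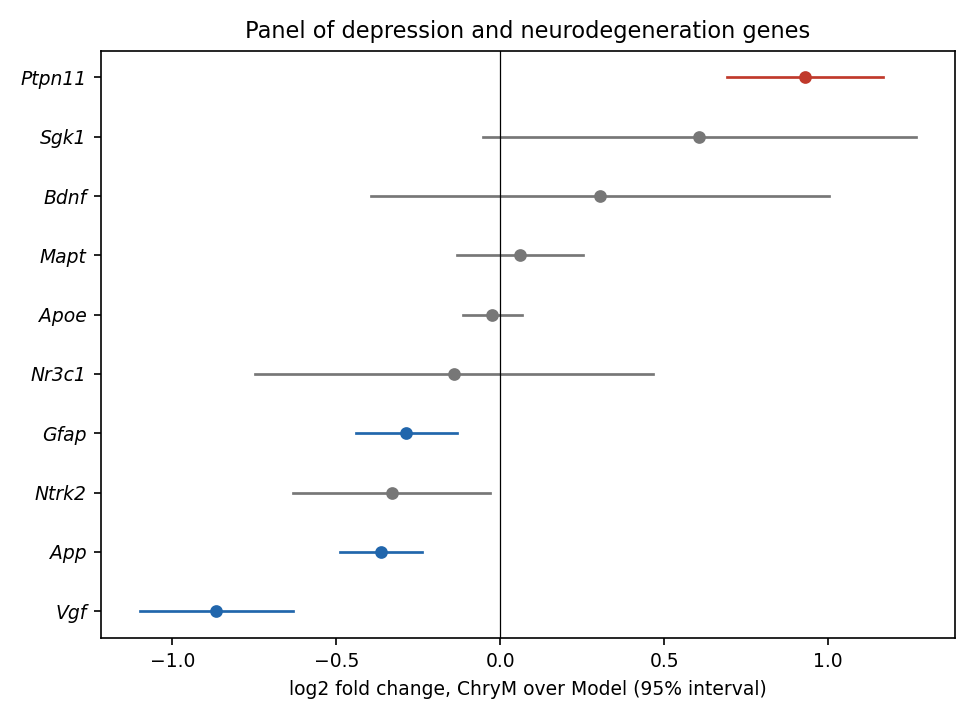
Log2 fold change of ChryM over Model with its 95% interval for 10 tested genes of the panel; red is called higher, blue called lower, grey not called. Ptpn11 at 0.93 and Vgf at -0.87 stand at the ends, and intervals of low-count genes such as Bdnf and Sgk1 span more than 1 on the log2 scale.

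Microglial genes were all under 0 but mostly not called. C1qa, the first chain of complement C1q, went from 78.8, 60.6 and 49.2 CPM to 27.3, 50.6 and 31.2 CPM, so that the groups overlapped, at -0.75 ± 0.22 (adjusted p = 0.0151). Without Model 1, ChryM 1 or ChryM 3 its adjusted p was 0.196, 0.14 and 0.078. The 6 tested members had a median of -0.40, and the sum of the 18 genes of the list was 264 to 322 CPM in Model and 195 to 221 CPM in ChryM. B2m, the light chain of class I antigens, was at -0.65 ± 0.17 and lost its call without Model 1, Model 2 or ChryM 2 (adjusted p of 0.0632 to 0.0767).

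LOC102546590 (ENSRNOG00000062554), which the file describes as a class I histocompatibility antigen, had the smallest p of all genes. It stood at 454, 495 and 417 CPM in Model and 99.4, 151 and 103 CPM in ChryM. The groups were separated by more than 2-fold, at -1.93 ± 0.11 (adjusted p = 1.56e-21). Class I genes form a family of near-identical copies, so its reads may be shared with other members.

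Several of the genes with the smallest p overlap another gene. Slc16a13, a monocarboxylate transporter gene beside Slc16a11, rose from 365, 387 and 318.5 CPM to 709, 709 and 775.5 CPM, at 1.04 ± 0.08. Its groups did not overlap, and neither did those of Pced1b, which fell from 645 ± 39.7 to 296 ± 26.9 CPM (SD, n = 3), at -1.13 ± 0.08. Pced1b overlaps Amigo2, which had 0 to 5 counts in a library. Gpr39, a zinc receptor gene, fell at -0.98 ± 0.07 with 266 to 525 counts in a library, while Lypd1, which overlaps it, had 16 to 22.

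IDs with no gene name made up 395 of the tested IDs, and 101 of these changed (25.6%), 80 of them lower. They held 23.8% to 24.6% of the counts in Model and 22.0% to 22.8% in ChryM. ENSRNOG00000064836 had 68, 57 and 75 counts in Model and 0 in every ChryM library, at least 79.1-fold lower with 3 counts over the group as the floor. ENSRNOG00000065780 had 69, 67 and 69 counts against 4, 5 and 4. Among those that rose, ENSRNOG00000064143 went from 172 to 377 CPM.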

How the data were processed

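Poly(A) RNA of the hippocampus was made into strand-keeping (dUTP) libraries, per the labels' protocols. The authors deposited whole-number read counts per gene and, per the file headers, FPKM values with a gene length. The submitters' processing notes list HISAT2 and DESeq2 with no version. Which tool counted the reads, with which strand option and on which build, is not given in the sources used here. Genes were filtered with filterByExpr, scaled with TMM factors of 0.977 to 1.04 and tested on the 6 libraries with edgeR 4.0.16 (glmQLFit robust, glmQLFTest, two-sided) in R 4.3.3, with Benjamini-Hochberg adjustment over 6387 genes and 4 residual degrees of freedom. Printed errors are the larger of the test's and the counting error. In 141 called genes the test's own was the smaller one, so their p-values can be too low. For genes with few counts the ratio has an exact binomial 95% interval, for counting error only.

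Overlaps and start sequences came from RefSeq (GRCr8), to which 23672 of 26195 named IDs matched. The comparison, gene lists and rule for named genes were chosen with earlier results of these data known. The rule took called genes with a symbol and non-overlapping groups: 20 by smallest p, then 12 by largest fold in each direction (30 or more summed counts in the higher group), up to 4 members per list by p, and every tested panel gene. Other list members were named after their values were seen. A few genes that the rule names are not reported here. On simulated data of the same depth, 8%, 28%, 72% and 92% of 50 genes each planted at folds of 1.25, 1.5, 2 and 4 were called, and 8 of 5936 unchanged genes. Alternatives were other scalings, tests, count filters, FPKM, a replicate block and each library left out. Restricting to genes with no overlapping gene and a counting-error minimum were added after seeing the data.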

Additional observations from a re-analysis of the deposited data

How the results depend on the processing

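All 602 called genes kept their direction in every setting that tested them. The 602 calls (273 higher, 329 lower) became 264 (106 and 158) with DESeq2, which adjusted over 1529 genes, 138 (63 and 75) when a fold of at least 1.2 was required, 352 (137 lower) on log2(FPKM + 1) and 346 (136 lower) on log2(FPKM + 0.1). With genes over 5 kb from another gene they were 67 of 949 (33 and 34), and with named genes that have no overlapping gene 208 of 3108 (100 and 108); fewer genes were tested there. Leaving out each library gave 422 to 520 calls, 176 to 221 higher and 229 to 304 lower. DESeq2 size factors, limma-voom, the likelihood ratio test, other count filters, 9 libraries, a spread that is not robust and the counting-error minimum gave 525 to 620. The replicate numbers did not pair the samples (correlations of same-numbered libraries 0.0113, -0.0122 and 0.0178), and the replicate block gave 664 calls.

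Of 63 list medians 34 changed sign in at least one setting, and 6 of these had a median beyond the spread between libraries. Over 5 kb from another gene they were 0.30 for neurotrophins, 0.19 for immediate early genes, 0.15 for chaperones, 0.13 for apoptosis genes and 0.087 for the panel. With no overlapping gene, neurotrophins were at 0.11 and apoptosis genes at 0.13. Leaving out each library gave -0.11 to 0.0024 for glutamate receptors and transporters, the highest without ChryM 1 (-0.0019 over all members tested there). The cause was not tested. At this depth and with 3 libraries a side, 92% of genes planted at 4-fold but 28% at 1.5-fold were called; depth and number of libraries were not varied.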

Other observations

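Several lists not described above had few members called. Of 35 tested V-ATPase and lysosomal genes 4 were lower and none higher, 11.4% called against 9.43% of all genes tested. These were Ctsa, Psap, Atp6v1g2 and Npc2, at -0.33, -0.37, -0.38 and -0.67, and without Model 2 or ChryM 2 the count was 2. Of the 20 members with no overlapping gene 1 was lower, with a median of -0.05. Of 15 ion pump genes 2 were lower and none higher, among them Atp1b1, a sodium pump beta subunit, at -0.23, a call lost without Model 1, Model 2, Model 3 or ChryM 3 (adjusted p = 0.0505 to 0.199). The list of imprinted genes had 14 tested members and includes Zfp57, a regulator of imprinting. Nnat, Gnas (-0.49 ± 0.06) and Peg3 (-0.41) were lower and Zfp57 and Ube3a (0.29) higher. Of the 5 members with no overlapping gene none was called, with a median of -0.11. Mitochondrial carriers and autophagy genes had none of 34 and none of 15 called.

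Low-count genes with large rises were Flrt3, an adhesion protein gene within Macrod2, with 5, 2 and 3 counts in Model and 19, 12 and 24 in ChryM (ratio 4.63, 95% counting interval 2.34 to 10.2), and Aurkc, with 13 and 48 summed counts (ratio 3.11, interval 1.66 to 6.26). Kdm4a, a histone demethylase gene, was lower at -1.21 ± 0.31, with 62 and 33 summed counts.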
